A study of Mus musculus with 6 samples.

Results

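The 10 genes of the circadian clock described here were measured in mouse follicular B cells after 1 h of culture: Per1, Per2, Per3, Cry1, Cry2, Arntl, Clock, Nr1d1, Nr1d2 and Bhlhe40. They were taken by symbol from a table of 12431 genes with raw read counts, and all 10 were found in it. The cells, taken by sorting CD23+ CD21/35- spleen cells of adult males, came from 3 wild-type mice (Gpr174+/Y, WT) and 3 knockout mice (Gpr174-/Y, KO) and were held for 1 h in complete RPMI with no added stimulus. The KO allele carries a tdTomato reporter in place of the Gpr174 coding sequence, so every cell of the mouse, and not the B cells alone, lacks the receptor. GPR174 is a receptor for lysophosphatidylserine that signals through Gαs, the G protein that raises cAMP. The hour of the day at which spleens were taken is not given in the sources used here. The libraries held 8452460 to 10944833 counts. WT replicate 2 stood apart from the other 5 on the first principal component (32.5 against -8.18 to -4.33, with 40.0% of the variance), and KO replicate 3 was highest on the second (15.6).

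The circadian clock of mammalian cells is a transcription loop. ARNTL (also called BMAL1) and CLOCK bind E-box sequences as a dimer and turn on the Per and Cry genes, whose proteins return to the nucleus and block that dimer, while NR1D1 and NR1D2 (REV-ERBα and REV-ERBβ) repress Arntl and BHLHE40 (DEC1) competes at E-boxes. Per1 has a further form of control: CREB, the transcription factor activated by cAMP and protein kinase A, induces it soon after a stimulus, which is part of how light is known to reset the clock. The comparison of WT with KO therefore asked whether Per1 differed between the genotypes, and whether it separated from the other clock genes.

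None of the clock genes passed the test. Of the 9 that had enough counts to be tested, 0 were called at an adjusted p under 0.05 by edgeR's quasi-likelihood test with Benjamini-Hochberg adjustment over all 10514 genes tested, against 1.82% of all genes. limma-voom also called 0 of the 9 and DESeq2 0 of the 8 to which it gave an adjusted p, and 1 of the 9, Nr1d2, had an unadjusted p under 0.05, where 11.9% of all genes did. The WT level of Per1 was 1.11 times that in KO, with a 95% interval of 0.999 to 1.23, and its ratio to each of the other clock genes overlapped between WT and KO libraries. In the same libraries 15 of 24 tested genes of a cAMP response list were called, all higher in WT. In bulk RNA, fewer cells that express a gene and less RNA per cell cannot be told apart.

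The stretches upstream of the Per1 transcription starts are shown first because they hold the letters that CREB and the ARNTL-CLOCK dimer are known to read. RefSeq (GRCm38.p6) lists 2 starts for Per1. In the sequences that follow, each the 250 bases before a start, 5′ to 3′ on the strand of the gene, capitals mark the CRE core (TGACG or its complement CGTCA, which is also part of the full cAMP response element TGACGTCA) and the E-box (CACGTG). Per1 start 1 lies at chr11:69098699-69098948 (plus strand), Per1 start 2 at chr11:69099902-69100151 (plus strand), Cry1 at chr10:85185055-85185304 (minus strand), Nr1d2 at chr14:18239107-18239356 (minus strand) and Nr4a1 at chr15:101266596-101266845 (plus strand). Cry1 is given as another clock gene with both motifs, Nr1d2 as the clock gene whose libraries separated, and Nr4a1, which encodes the orphan nuclear receptor NUR77, as a gene that was called.
Per1 start 1: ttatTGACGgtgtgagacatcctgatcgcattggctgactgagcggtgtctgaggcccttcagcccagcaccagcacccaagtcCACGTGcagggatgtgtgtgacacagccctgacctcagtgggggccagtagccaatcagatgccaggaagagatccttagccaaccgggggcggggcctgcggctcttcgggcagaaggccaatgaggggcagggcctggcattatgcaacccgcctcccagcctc
Per1 start 2: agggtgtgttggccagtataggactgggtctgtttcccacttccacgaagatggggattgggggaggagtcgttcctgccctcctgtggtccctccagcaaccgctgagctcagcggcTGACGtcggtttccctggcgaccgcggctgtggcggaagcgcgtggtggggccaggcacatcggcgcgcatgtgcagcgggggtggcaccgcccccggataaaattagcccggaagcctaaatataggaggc
Cry1: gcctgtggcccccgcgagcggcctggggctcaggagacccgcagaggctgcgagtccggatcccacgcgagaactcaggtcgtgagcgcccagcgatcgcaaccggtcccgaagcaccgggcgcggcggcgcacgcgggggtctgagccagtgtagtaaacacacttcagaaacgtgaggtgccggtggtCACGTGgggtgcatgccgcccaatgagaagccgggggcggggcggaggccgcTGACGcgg
Nr1d2: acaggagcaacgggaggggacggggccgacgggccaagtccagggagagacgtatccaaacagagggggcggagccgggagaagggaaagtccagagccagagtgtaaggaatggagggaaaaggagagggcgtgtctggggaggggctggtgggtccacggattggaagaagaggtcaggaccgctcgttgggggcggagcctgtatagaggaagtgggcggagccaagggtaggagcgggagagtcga
Nr4a1: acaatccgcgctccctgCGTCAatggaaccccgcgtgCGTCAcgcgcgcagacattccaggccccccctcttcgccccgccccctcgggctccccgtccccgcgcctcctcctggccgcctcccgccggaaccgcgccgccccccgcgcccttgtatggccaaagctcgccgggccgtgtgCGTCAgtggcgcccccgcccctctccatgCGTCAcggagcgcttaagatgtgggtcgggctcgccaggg

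The first Per1 stretch held a CRE core that began 246 bases before the start and an E-box that began 166 bases before it, and the second held a CRE core at 132 bases. Cry1 held a core at 8 bases and an E-box at 60 bases before its start. Nr4a1 held 4 cores, at 233, 213, 69 and 40 bases, and Nr1d2 held none of the motifs searched. Promoters were found for 8 of the 10 clock genes, with 12 starts, and Per2 and Bhlhe40 had no entry. Searched on both strands, the CRE core stood before 4 of the 12 starts (Per1 at both, Cry1 and Cry2) and 17.8% of 32851 RefSeq starts, and the E-box before the first Per1 start and that of Cry1 and 6.02% of all starts. The full TGACGTCA was before 0 of the 12 starts and 1.55% of all. The D-box TTATGTAA, read by the DBP and NFIL3 family, stood before the Per3 start in 2 copies, at 205 and 158 bases, and before 0.819% of all starts. A match is a description of the letters in a window and not a binding site, and the lack of one says only that the letters are not in that window.

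**Figure D1:**
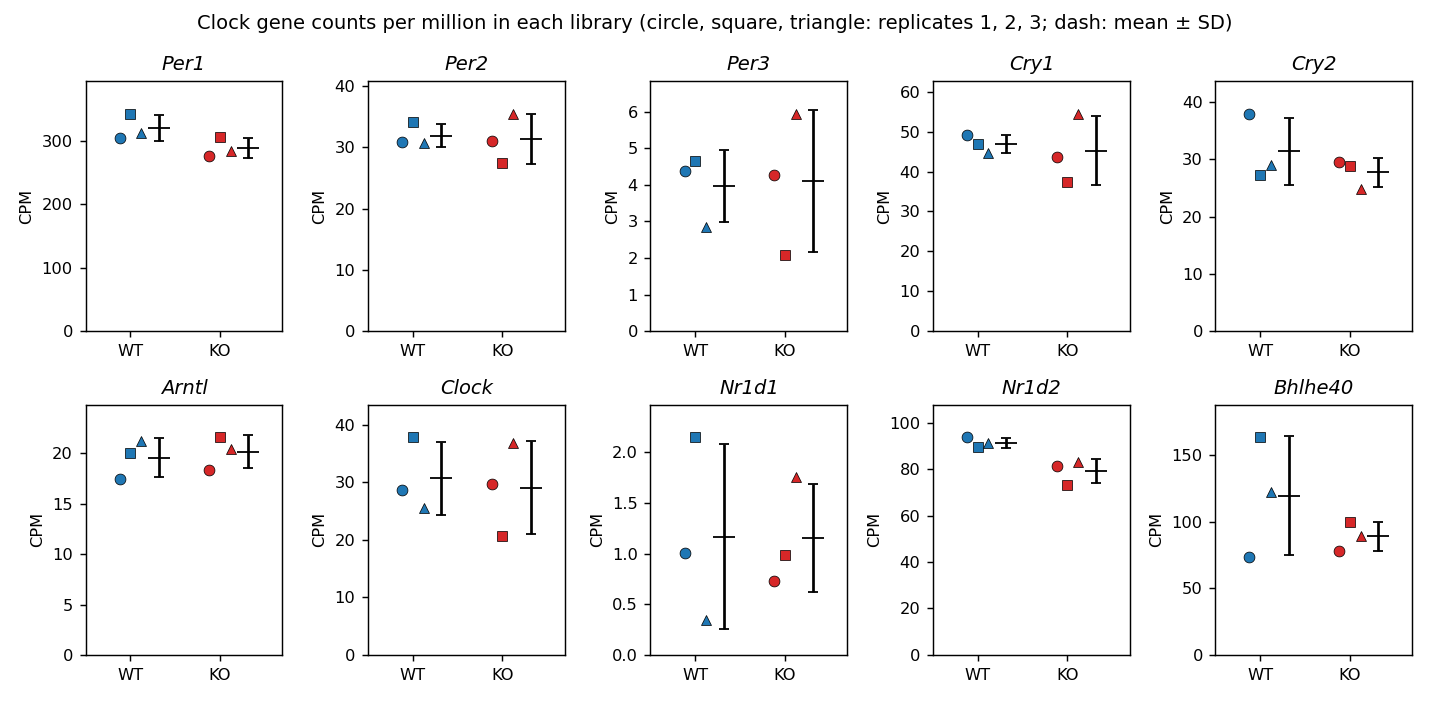
Read counts scaled to a common library size (CPM, y axis) of each of the 10 clock genes in the 3 WT and 3 KO libraries, 1 point per library with the group mean. The Nr1d2 groups do not overlap; in the other 9 genes at least 1 KO library lies inside or beyond the WT range.

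Per1 (chr11:69095217-69109960, plus strand, GRCm38) encodes the PER1 repressor. Its 17694 reads over the 6 libraries were the most of the 10 clock genes. It was at 304.8, 342.5 and 312.2 CPM in WT replicates 1 to 3 and at 275.2, 306.0 and 283.6 CPM in KO replicates 1 to 3. The groups met at a single point: KO replicate 2 lay above WT replicate 1. The means were 319.8 ± 19.95 CPM in WT and 288.3 ± 15.9 CPM in KO (SD, n = 3 each), a log2 fold change of 0.15 ± 0.07 (SE; 95% interval -0.0015 to 0.30), with an edgeR unadjusted p of 0.0522 and adjusted p of 0.427. Of the 10514 genes tested, 25.2% had a larger log2 fold change towards WT. Without WT replicate 2, the library in which Per1 was highest, the log2 fold change was 0.10 (edgeR adjusted p = 0.724).

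Per2 (chr1:91415982-91459324, minus strand) and Per3 (chr4:151003652-151044665, minus strand) encode the other PER proteins, PER2 being a core repressor of the loop. Per2 was at 30.8, 34.1 and 30.8 CPM in WT and at 31.0, 27.4 and 35.5 CPM in KO, so the KO libraries spanned the WT range on both sides. Its log2 fold change was 0.03 ± 0.15 (95% interval -0.28 to 0.33; edgeR adjusted p = 0.969). Per3 was counted rarely, with 48, 39 and 25 reads in WT and 47, 19 and 61 in KO. Both the lowest and the highest library for Per3 were KO libraries, and its log2 fold change of -0.05 ± 0.44 had a 95% interval of -0.96 to 0.85 (edgeR adjusted p = 0.979). At this depth the interval left room for differences from 0.515-fold to 1.80-fold. Per3 lies within the span of Camta1 on the same strand.

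The cryptochromes CRY1 and CRY2 are the partners with which the PER proteins repress the loop. Cry1 (chr10:85131700-85185064, minus strand) was at 49.1, 46.9 and 44.6 CPM in WT and at 43.6, 37.4 and 54.5 CPM in KO, and the KO range held all 3 WT libraries. Its log2 fold change was 0.05 ± 0.14 (95% interval -0.23 to 0.33; edgeR adjusted p = 0.924). Cry2 (chr2:92403646-92434043, minus strand) was at 38.0, 27.2 and 28.9 CPM in WT and at 29.6, 28.8 and 24.9 CPM in KO. WT replicate 1 stood above the other 5 libraries, which overlapped, and the log2 fold change was 0.18 ± 0.16 (95% interval -0.15 to 0.51; edgeR adjusted p = 0.735).

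Neither gene of the activating dimer was called. Arntl (chr7:113207465-113314126, plus strand) was at 17.5, 20.03 and 21.2 CPM in WT and at 18.4, 21.6 and 20.5 CPM in KO, groups that lay over each other. Its log2 fold change was -0.04 ± 0.18 (95% interval -0.42 to 0.33; edgeR adjusted p = 0.958). Clock (chr5:76209868-76304792, minus strand), which encodes the histone acetyltransferase partner of ARNTL, was at 28.7, 37.8 and 25.5 CPM in WT and at 29.8, 20.6 and 36.8 CPM in KO. Its lowest library was KO replicate 2 and its highest WT replicate 2, with a log2 fold change of 0.07 ± 0.19 (95% interval -0.32 to 0.47; edgeR adjusted p = 0.925).

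The REV-ERB receptors are heme-binding nuclear receptors that repress Arntl. Nr1d2 (chr14:18204054-18239127, minus strand) was at 93.7, 89.4 and 91.0 CPM in WT and at 81.5, 73.3 and 83.1 CPM in KO. It was the 1 clock gene of the 9 tested whose groups did not overlap, with every WT library above every KO library, where 16.7% of all genes did not overlap 8.43% with WT above and 8.28% with WT below. The means were 91.4 ± 2.14 CPM in WT and 79.3 ± 5.26 CPM in KO (SD, n = 3 each), and the log2 fold change of 0.21 ± 0.10 had a 95% interval of 0.003 to 0.41 (edgeR unadjusted p = 0.0467, adjusted p = 0.413). Nr1d1 (chr11:98767932-98775333, minus strand) had 11, 18 and 3 reads in WT and 8, 9 and 18 in KO, 67 in all, and did not pass the filter on low counts. Fitted without that filter, its log2 fold change was 0.00 ± 0.90 (95% interval -1.82 to 1.83).

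Bhlhe40 (chr6:108660629-108666925, plus strand) encodes DEC1, a repressor at E-boxes that is also induced by activation of lymphocytes. It was at 73.6, 163.5 and 122.3 CPM in WT and at 77.9, 99.97 and 89.4 CPM in KO. WT replicates 2 and 3 stood above all KO libraries, while WT replicate 1 was the lowest of the 6. The means were 119.8 ± 45.0 CPM in WT and 89.1 ± 11.03 CPM in KO (SD, n = 3 each), with a log2 fold change of 0.42 ± 0.33 (95% interval -0.45 to 1.30; edgeR adjusted p = 0.725). The Bhlhe40 estimate depended on WT replicates 1 and 2, the lowest and the highest of the 6 libraries. Without WT replicate 1 its log2 fold change was 0.68 and it was called (edgeR adjusted p = 0.0015), and without WT replicate 2 the log2 fold change was 0.13 (edgeR adjusted p = 0.892).

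Among the 9 tested genes 7 log2 fold changes were above 0 and 2 below, with a median of 0.07, where the median over all genes was -0.003. The 95% intervals of Per1 and Nr1d2 were the narrowest of the 9, and those of Per3 and Bhlhe40 the widest.

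**Figure D2:**
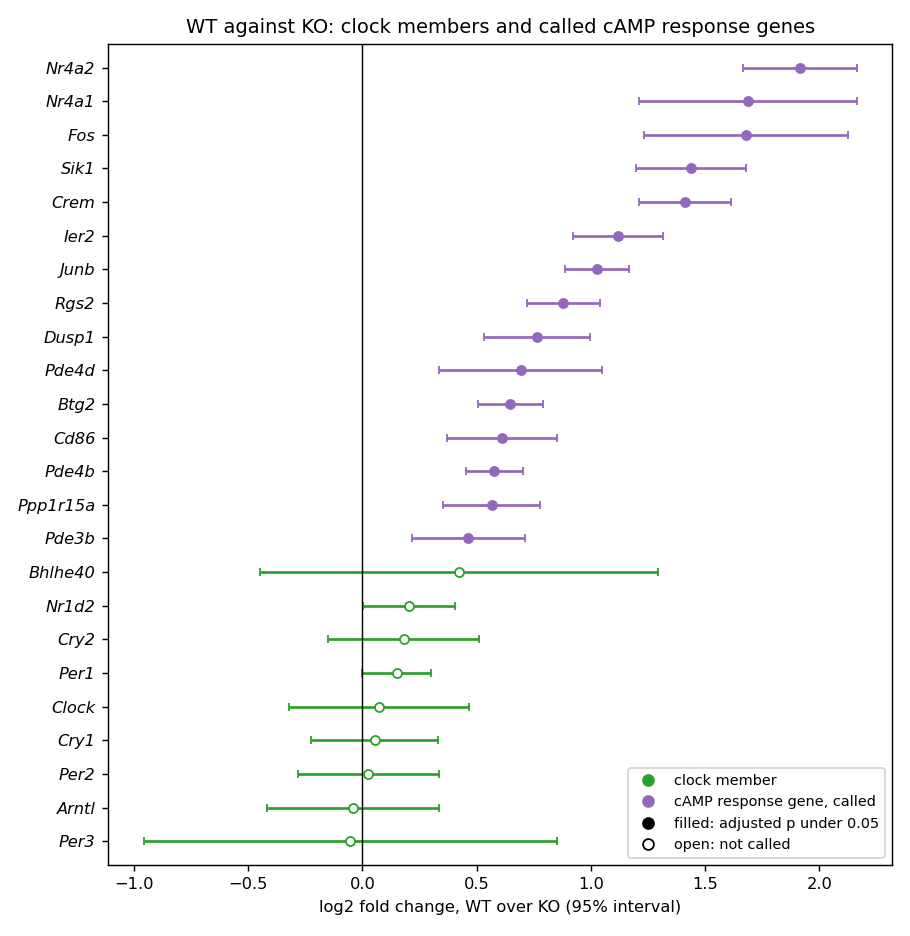
Log2 fold change, WT over KO (x axis), of the 15 called cAMP response genes and the 9 tested clock genes, with 95% intervals. The Per1 interval runs from -0.0015 to 0.30 and the Nr1d2 interval from 0.003 to 0.41. Of the 9 clock genes only Nr1d2 has an interval that does not cross 0.

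Whether Per1 separated from the rest was asked inside each library, as the ratio of Per1 to each of the other 8 tested clock genes with a prior count of 2. For 0 of the 8 did the WT and KO ratios lie apart, where 22.6% of the 10513 other tested genes had a ratio that did. Arntl came nearest: the Per1-to-Arntl ratio was 17.3, 16.9 and 14.6 in WT and 14.8, 14.1 and 13.7 in KO, so that only KO replicate 1 and WT replicate 3 crossed. The difference in log2 ratio, WT minus KO, was 0.19 ± 0.08 (SE; exact permutation test over 10 splits, two-sided, p = 0.2). With 3 libraries against 3 this test cannot give a p under 0.1.

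Against the other PER and CRY genes and Clock the differences in log2 ratio were small beside their errors: 0.12 ± 0.14 for Per2 (exact permutation p = 0.4), 0.11 ± 0.50 for Per3 (exact permutation p = 0.8), 0.08 ± 0.20 for Cry1 (exact permutation p = 0.8), -0.02 ± 0.21 for Cry2 (exact permutation p = 1) and 0.05 ± 0.31 for Clock (exact permutation p = 1). The Per1-to-Per2 ratio was 9.83, 9.99 and 10.1 in WT and 8.82, 11.1 and 7.95 in KO, with the KO libraries on both sides of the WT range. For Cry2 it was the WT ratios, 7.99, 12.5 and 10.7, that enclosed those of KO, 9.25, 10.6 and 11.3. Against Nr1d2 and Bhlhe40 the estimates were below 0, with differences of -0.06 ± 0.12 (exact permutation p = 0.7) and -0.21 ± 0.30 (exact permutation p = 0.5). After Benjamini-Hochberg adjustment over the 8 ratios each exact permutation p was 1. A p above the threshold does not show that Per1 moved as the others did.

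**Figure D3:**
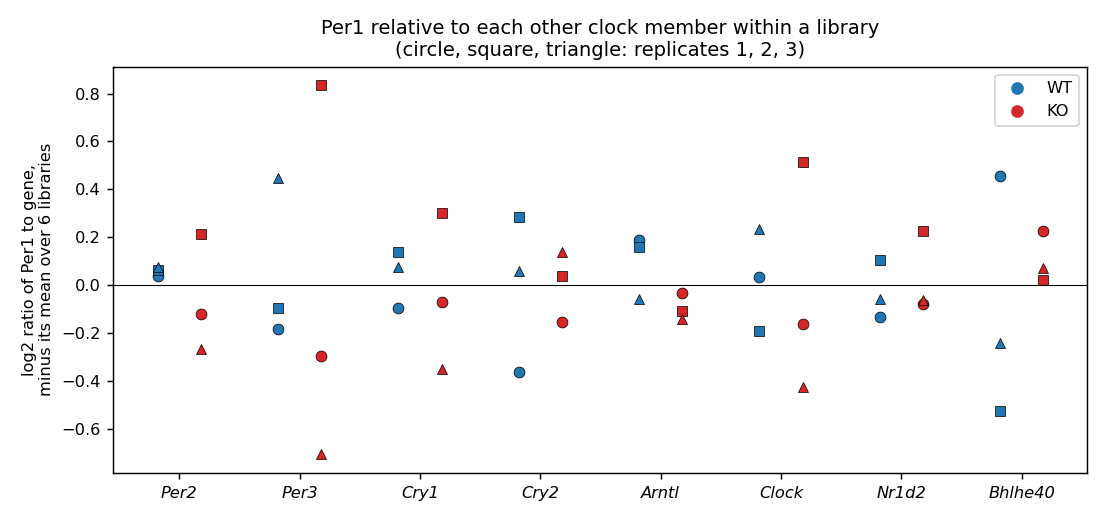
Log2 ratio of Per1 to each of the 8 other tested clock genes in each library (1 point per library, WT and KO). For every gene the WT and KO points overlap, and the Arntl points cross least.

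Genes known to respond to cAMP gave a measure of what moved in the same libraries. The list of 26 was written from general knowledge with earlier results of these data known, so its direction is not independent evidence. Of its 24 tested genes 15 were called higher in WT and 0 lower, against 1.3% and 0.514% of all genes, and the median log2 fold change was 0.63. The largest were Nr4a2 (1.92 ± 0.12), Nr4a1 (1.69 ± 0.19), Fos (1.68 ± 0.21), Sik1 (1.44 ± 0.12) and Crem (1.41 ± 0.10), followed by Ier2 at 1.12, Junb at 1.03 and Rgs2 at 0.88, where Nr4a2 and Fos encode immediate early transcription factors, Sik1 a kinase that holds back the CREB coactivators and Crem a CREB family repressor. Nr4a1 was at 1846, 2723 and 1954 CPM in WT and at 722.6, 709.2 and 592.0 CPM in KO, with no overlap. The smallest called value, 0.46 ± 0.12 for Pde3b, a phosphodiesterase that breaks down cAMP, was above the upper end of the Per1 interval.

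All 15 called estimates lay above that upper end, 0.30, and the intervals of 14 of them lay clear of the Per1 interval. The same contrast chose these 15, and calling favors large estimates. The comparison is therefore a description and not a test of Per1 against cAMP targets. Ranked by log2 fold change with these 24 genes, Per1 ranked 19 of 25, after Atf3 at 0.19 and before Maff at -0.01. The ratio of Per1 to the listed gene was lower in WT without overlap for 14 of the 24 and higher without overlap for 2, Egr2 and Pim1, where 2.78% and 19.9% of all tested genes did so. The 14 were all among the 15 called, which the same contrast had chosen. Not every immediate early gene was higher in WT. Egr1 and Egr2, which encode zinc finger factors that many stimuli induce, had log2 fold changes of -0.39 and -0.63 and were not called.

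Of the called genes, 10 had a promoter entry that was read here, and 9 of these held the CRE core before a start, 3 of them (Btg2, Dusp1 and Ppp1r15a) as the full TGACGTCA. Here a gene counted if any of its starts had the letters. The 17.8% (core) and 1.55% (full element) of all RefSeq starts count single starts and are not a like measure. The list was made of genes known as cAMP targets, so this share is a description.

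Per1 is also known as a glucocorticoid target, and a list of 16 such genes, written with earlier results known, was read beside it. Of 14 tested, Per1 among them, 2 were called higher in WT and 0 lower, beside 1.3% and 0.514% of all genes, and 5 had an unadjusted p under 0.05, beside 11.9%. The median log2 fold change was 0.13. They were Cxcr4, a chemokine receptor, at 0.41 (edgeR adjusted p = 0.000313), and Dusp1, a phosphatase of MAP kinases that is on the cAMP list too, at 0.76 (edgeR adjusted p = 0.000121). Tsc22d3 and Fkbp5, which are standard reporters of the glucocorticoid receptor, had log2 fold changes of 0.10 and -0.06 and were not called. Of the 14 estimates 11 were above 0 and 3 below. The libraries did not overlap in 6 of the 14 with WT above and in 0 with WT below, beside 8.43% and 8.28% of all genes. A glucocorticoid part in the Per1 value was not tested.

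Of 33 further genes of the clock pathway, written as a list with earlier results known, 29 were in the table and 26 had enough counts. edgeR and limma-voom called 0 of the 26 and DESeq2 0 of the 22 to which it gave an adjusted p. By edgeR 4 had an unadjusted p under 0.05, where 11.9% of all genes did. The 4 were higher in WT, as were 683 of the 1248 such genes among all 10514 tested. Their estimates ran from -0.43 for Timeless to 0.99 for Usp2, with 16 above 0, 10 below and a median of 0.08. The libraries did not overlap in 5 of the 26 with WT above (Usp2, Csnk2a1, Skp1a, Ciart and Cul1, a further ligase subunit) and in 1 with WT below (Timeless, a replication fork protein), beside 8.43% and 8.28% of all genes. Timeless was at 13.0, 14.8 and 7.49 CPM in WT and at 17.3, 14.9 and 15.4 CPM in KO (edgeR adjusted p = 0.499). Usp2, a deubiquitinase that acts on PER and CRY proteins, was at 9.42, 15.3 and 8.74 CPM in WT and at 4.55, 6.43 and 5.85 CPM in KO, with no overlap. Its log2 fold change was 0.99 ± 0.29 (edgeR adjusted p = 0.0888). The other 3 were Skp1a, a subunit of the ubiquitin ligases that degrade PER and CRY (0.26), Usf2, an E-box binding factor (0.21), and Csnk2a1, a kinase subunit (0.20). Usf2 was called without WT replicate 2 (log2 fold change 0.30, edgeR adjusted p = 0.0278).

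The clock's output and feedback genes stood at 0.09 for Bhlhe41 (DEC2), -0.16 for Tef and 0.40 for Nfil3, which act at D-boxes, and 0.26 for Ciart, a repressor of the ARNTL-CLOCK dimer, with none called. Ciart was at 9.42, 9.90 and 9.20 CPM in WT and at 7.46, 7.20 and 9.07 CPM in KO, just without overlap, and the edgeR adjusted p was 0.767. Rora, a nuclear receptor that activates Arntl, had 20 reads over the 6 libraries and was not tested. They were 11, 3 and 4 reads in WT and 0, 0 and 2 in KO. Dbp and Npas2 were not analysed here.

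**Figure D4:**
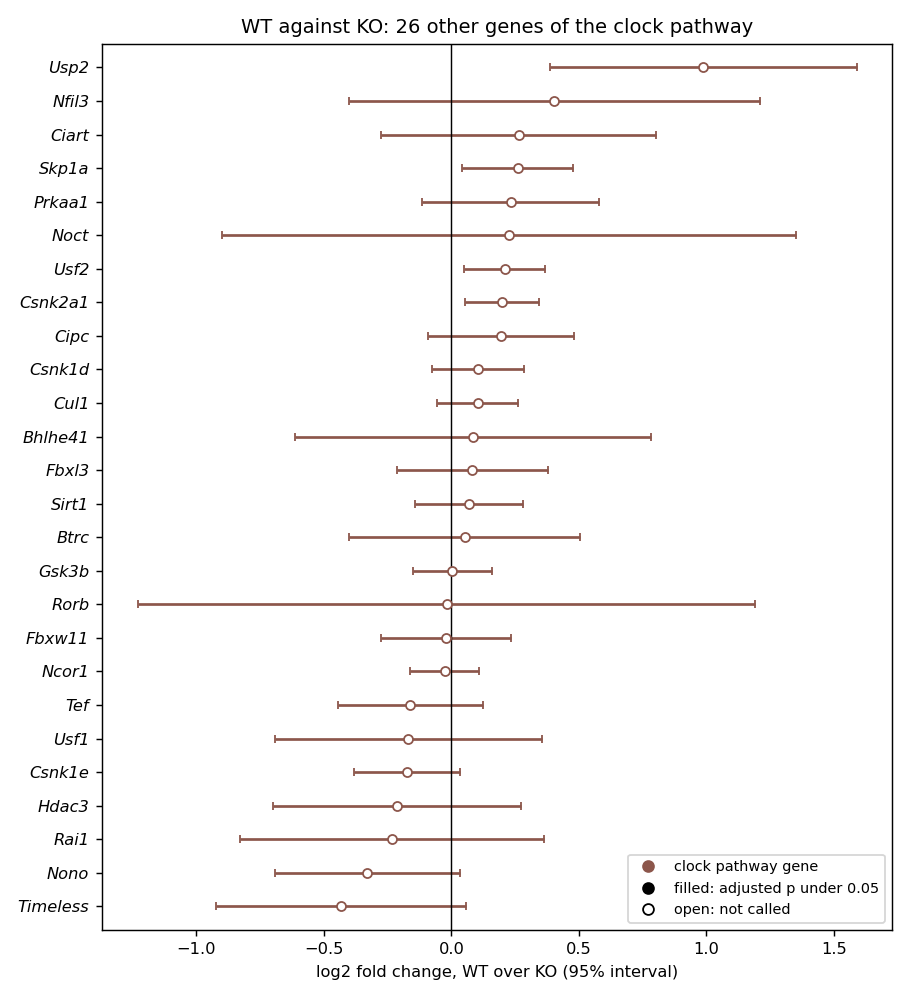
Log2 fold change, WT over KO (x axis), with 95% intervals, for the 26 further clock pathway genes that were tested. Usp2 stands at the top at 0.99 and Timeless at the bottom at -0.43, and none was called.

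Some clock genes had the same order of KO libraries, which was noticed after the values were seen. In 5 of the 9 (Per2, Per3, Cry1, Clock and Nr1d2) KO replicate 2 was the lowest KO library and KO replicate 3 the highest, an order that 17.4% of all genes had. From KO replicate 2 to KO replicate 3 the log2 CPM differed by 1.43 for Per3, 0.83 for Clock, 0.54 for Cry1, 0.37 for Per2 and 0.18 for Nr1d2, and by -0.21 for Cry2, -0.16 for Bhlhe40, -0.11 for Per1 and -0.08 for Arntl, the 4 without this order. The hour at which each mouse was taken is not given, and its part in this spread was not tested. As profiles over the 6 libraries, centred in log2 CPM, Per2 and Cry1 were the nearest of the 9 genes to each other, with a root-mean-square difference of 0.082, and Per1 was nearest to Nr1d2 (0.124) and Arntl (0.127). This difference is not scaled to each gene's spread, so genes that vary little lie near each other. Arntl had a log2 fold change of -0.04 where that of Per1 was 0.15.

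**Figure D5:**
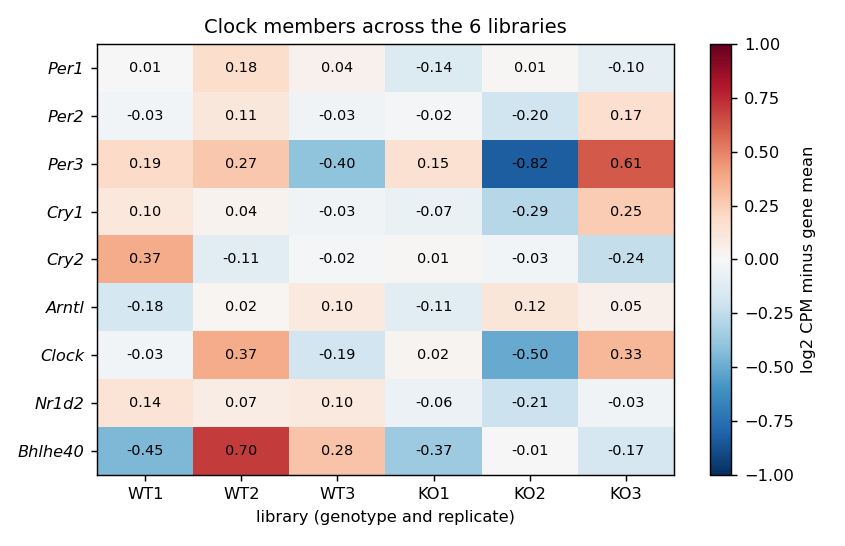
Log2 CPM of the 9 tested clock genes in each library, centred on the mean of the 6 libraries for each gene (color scale in log2 units). KO replicate 2 is low and KO replicate 3 high for Per2, Per3, Cry1 and Clock, and Bhlhe40 is lowest in WT replicate 1.

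Among 9681 tested genes with a mean of at least 20 reads, those whose profile was most like that of Per1 were Syap1 (root-mean-square difference 0.0176 in log2 CPM over 6 libraries), Snx12 (0.0232), Fgd6 (0.0258), Gnai3 (0.0269), Copg (0.0322), Mtf2 (0.0331), Nadk (0.0351) and Fam63b (0.0372). None of the 8 was called, and none is on the lists used here.

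Gpr174 itself had a mean of 127.6 ± 7.43 CPM in the WT libraries and 99.95 ± 0.21 CPM in the KO libraries (SD, n = 3 each), a log2 fold change of 0.35 ± 0.09 (edgeR adjusted p = 0.0359); since reads from the 3′ end may lie outside the replaced coding part, these counts do not check the genotype. The 5 B cell markers were present, with a summed level of 3521 to 3686 CPM in WT and 4091 to 4110 CPM in KO. Of the 5, 1 was called, Cd79b, beside 1.82% of all genes. The follicular marker Fcer2a was at 403.4 to 447.9 CPM in WT and 470.4 to 571.0 CPM in KO, so both sets of B cell values were lower in WT without overlap. Of all genes tested, 8.28% lay lower in WT without overlap and 8.43% higher. The paper reports Fcer2a and Cd22, which is on the B cell list, as higher in KO cells after a longer culture. T cell markers summed to 4.77 to 11.01 CPM in WT and 4.28 to 7.52 CPM in KO, myeloid markers to 33.6 to 48.2 and 31.3 to 38.5 CPM, and plasma cell markers to 19.4 to 23.6 and 17.7 to 19.98 CPM. NK markers summed to 7.04 to 10.9 CPM in WT and 5.17 to 5.64 CPM in KO, without overlap, and the erythroid marker Alas2 was at 24.9 to 56.9 and 30.3 to 99.8 CPM. The marginal zone list, which includes the CD21/35 gene Cr2, summed to 1246 to 1335 CPM in WT and 1225 to 1420 CPM in KO. All 4 genes of that list passed the filter, so Cr2 transcripts were counted in cells sorted as CD21/35-. The sum does not give the share that was Cr2. Adgre1, Ncr1, Jchain and the globin genes were not analysed here. The part of these markers in the values above was not tested. Whether counting used strand is not stated. The spans of Cry2, Arntl, Nr1d1 and Bhlhe40 overlap in part those of genes annotated on the opposite strand. Those of Per3 and Clock overlap same-strand neighbours. The overlap takes in the annotated 3′ end of Nr1d1 and Per3, and not that of Cry2, Arntl, Bhlhe40 or Clock. Whole gene spans were compared and not exons, so whether any reads were shared was not tested.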

How the data were processed

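Follicular B cells of 3 WT and 3 KO mice were profiled by 3′ RNA sequencing (QuantSeq, 50 bp single end). The authors aligned reads to mm10 with STAR and deposited raw HTSeq counts per gene, with no normalization. Versions, annotation and the strand setting are not given in the sources used here. The table held no gene with fewer than 10 reads in all, and 0 sample columns were left unused.

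Genes were filtered with filterByExpr, scaled with TMM and tested with edgeR 4.0.16 (robust quasi-likelihood F test, R 4.3.3, two-sided, Benjamini-Hochberg over all genes tested, threshold 0.05). CPM are counts over the TMM-scaled library size. SE is the log2 fold change divided by the root of F. Log2 ratios used a prior count of 2 and an exact permutation test. The edgeR test and the ratio estimate were run on simulated data with log2 changes larger than the Per1 and Nr1d2 estimates. The exact permutation test and the other steps were not simulated. After each genotype's mean was subtracted from the log2 CPM of every gene, the remaining deviations of same-numbered libraries correlated at 0.0498, 0.0136 and 0.0432. Numbers were therefore not taken as pairs. Chi-square per degree of freedom between replicates was 6.89 to 10.9, so no library was a duplicate.

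Clock genes and lists were chosen with earlier results of these data known. Named were all 10 clock genes, up to 8 called genes a list by size, preset clock outputs and the 8 profiles nearest to Per1. Timeless, Usp2, Skp1a, Usf2, Csnk2a1, Cul1, Atf3, Maff, Pde3b, Egr1, Egr2, Pim1, Tsc22d3 and Fkbp5 were named after their values were seen. Alternatives were DESeq2 1.42.0, limma-voom 3.58.1, RLE factors, library totals, no filter, a mean of at least 50 counts, ordinary dispersions, a replicate block and leaving out each library. Gene positions are from GENCODE on GRCm38, the assembly that mm10 names.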

Additional observations from a re-analysis of the deposited data

How the results depend on the processing

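Under the 8 alternatives that kept all libraries, 0 clock genes and 0 further clock pathway genes were called, as were 14 to 17 cAMP genes and 2 to 3 glucocorticoid genes. The Per1 log2 fold change ran from 0.14 to 0.15, with adjusted p values of 0.306 to 0.460 over edgeR, DESeq2 and limma-voom. Of 70 fold changes of clock genes under these settings 0 were called and 2 turned direction, both of Per3, at 0.0193 under limma-voom and 0.0184 with the replicate block. Leaving out each library in turn gave 0 to 1 clock genes called, 0 to 1 further clock genes, 12 to 15 cAMP genes, 2 to 3 glucocorticoid genes and 0 to 2 Per1 ratios without overlap. Those were the ratios to Bhlhe40 without WT replicate 1, to Arntl without WT replicate 3 or KO replicate 1, and to Per2 and Per3 without KO replicate 2. With a library left out, groups lie apart more easily. The share of all genes was not computed for these fits, so the ratio counts are a description only. Over the same fits the log2 fold changes ran from -0.063 to 0.12 for Per2, -0.37 to 0.31 for Per3, -0.066 to 0.21 for Cry1, -0.11 to 0.036 for Arntl, -0.12 to 0.28 for Clock, 0.02 to 0.27 for Cry2, lowest without WT replicate 1, 0.15 to 0.24 for Nr1d2, 0.13 to 0.68 for Bhlhe40 and 0.10 to 0.19 for Per1. The ratio count was 0 with a prior count of 0.5. With the replicate number as a block 0 clock genes and 17 cAMP genes were called and Ddit4 joined the glucocorticoid calls (edgeR adjusted p = 0.0457). In that setting 1 Per1 ratio, to Arntl, differed in 1 direction within all same-numbered libraries. The share of all genes with such a ratio was not computed. The numbers are shared labels only, although the deviations of each library from its genotype mean correlated best with its own number. The causes of these shifts were not tested. Depth limited Per3 and Nr1d1 most, with 239 and 67 reads in all.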
